A study of Mus musculus with 36 samples.

Results

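The hippocampus of CKp25 mice was compared between 6 weeks and 2 weeks after induction of p25, by RNA sequencing. The comparison used 2 of the 36 samples of the series, which held 6 of its 12 RNA libraries. The libraries were taken by their labels alone. CKp25 at 6 weeks comprised CKp25_6wk_3937, CKp25_6wk_3940 and CKp25_6wk_4008, and CKp25 at 2 weeks comprised CKp25_2wk_4518, CKp25_2wk_4890 and CKp25_2wk_4894. Both groups were female double-transgenic CK-p25 mice. Control littermates, labelled CK, were sampled at 6 and at 2 weeks with 3 libraries each and serve here as the background of time without p25. All groups carry the same labelled age, 3 months. Effects of the time since induction, of age when the tissue was taken and of processing date cannot be told apart. Nothing in the labels ties a library number to an animal, and the p-values therefore reflect variation among libraries that may be technical.

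p25 is a truncated form of p35, the protein that switches on the kinase Cdk5 in neurons. Calpain cuts p35 to p25, which is longer-lived and leaves Cdk5 active in the wrong places. In CK-p25 mice a transgene for p25 is switched on in adult forebrain neurons through the Camk2a promoter. The model is known for DNA breaks and re-entry of neurons into the cell cycle, gliosis, and loss of neurons and synapses in the hippocampus. Glia and vessels do not express the transgene. The sequenced RNA came from whole hippocampal tissue, in which fewer cells of a type and less RNA per cell cannot be told apart.

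The 6 CKp25 libraries held 5029996 to 6450140 reads assigned to genes. Levels below are in CPM, the count of a gene relative to its library's gene counts, scaled between libraries by the TMM method. Library CKp25_2wk_4518 stood apart: 6.81% of its reads aligned to several places, against 11.5 to 13.9% in the other 5, and 46.9% lay outside annotated genes, against 38.1 to 40.2%. In CK, 6.86 to 9.52% aligned to several places in the 3 libraries at 6 weeks and 7.15% in CK_2wk_4520, against 13.8 and 14.3% in CK_2wk_4891 and CK_2wk_4893. Choroid plexus, the source of cerebrospinal fluid, was present to a varying degree: its 22 matched markers summed to 233 to 3806 CPM in CKp25 at 6 weeks and 209 to 2125 CPM at 2 weeks. None of its 21 tested markers was called by edgeR or DESeq2, 1 had an unadjusted p under 0.05, and Ttr, which encodes transthyretin, ranged from 6.44 to 1820 CPM at 6 weeks and from 6.49 to 1053 CPM at 2 weeks. Along the first principal component of the 6 libraries, with 51.6% of the variance, the 2 times did not overlap.

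Between the 2 times, genes of cell division fell most. Lists of astrocyte, lipid transport, complement, myelin and vessel genes held more genes called higher than lower at 6 weeks, and lists of neuronal channels and postsynaptic proteins held more called lower than higher. Of 14457 genes tested, 885 (6.12%) were higher and 800 (5.53%) lower in CKp25 at 6 weeks than at 2 weeks, by edgeR's quasi-likelihood test at an adjusted p under 0.05 (11.7% in either direction). The median log2 fold change was 0.58 among higher and -0.53 among lower genes, and -0.0036 over all genes. Changes of at least 2-fold were fewer among higher genes (105, 0.726%) than among lower genes (202, 1.4%). In CK, no gene (0%) was called between 6 and 2 weeks, 560 had an unadjusted p under 0.05, and the lowest adjusted p was 0.221. In CKp25, 3698 had an unadjusted p under 0.05. The 3 libraries of each time did not overlap in 4162 of the 14457 genes (28.8%) and in 1651 of the 1685 called genes, so that separation of the times alone is common. DESeq2 and limma-voom also called no CK gene between the times; without a filter on low counts 66 were higher and 64 lower. The change over time differed between CKp25 and CK in 80 genes (0.553%) by the interaction term of the same fit, more positive in CKp25 for 54 and more negative for 26. Without CKp25_6wk_3937, 431 genes were higher and 408 lower, and without CKp25_2wk_4894, 467 and 507. Without CKp25_6wk_4008, 524 were lower. Scaling by library totals alone gave 686 higher and 1311 lower genes, so that 34.4% of the calls were higher instead of 52.5%, with the median of all genes at -0.07.

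**Figure D1:**
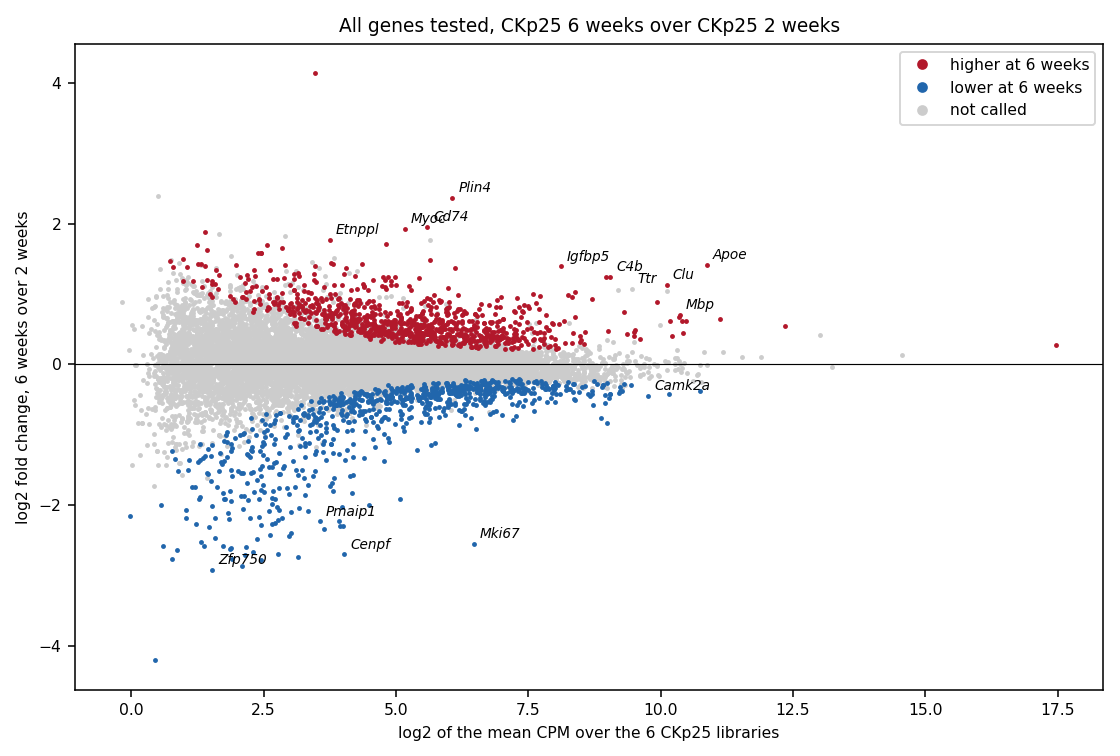
Log2 fold change of each tested gene, CKp25 6 weeks over CKp25 2 weeks (vertical axis), against the log2 of its mean CPM in the 6 CKp25 libraries (horizontal axis). Red points are the 885 genes called higher and blue points the 800 called lower; Mki67 lies at -2.55 and Apoe at 1.41.

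Among called genes that have a symbol in the files, at least 2 CPM on average and no overlap between the times, those with the largest falls were mostly genes of the dividing cell. They were Zfp750, a zinc finger transcription factor of epithelial differentiation, and Kif18b, Bub1, Kif2c, Spc25, Ube2c, Cenpf, Ncapg, Kif14 and Pclaf, which act at spindles, kinetochores, chromosomes or replication forks. Their log2 fold changes ran from -2.92 for Zfp750 to -2.62 for Pclaf. In CK, where none was called, they ran from -1.67 for Kif2c to 1.325 for Zfp750, with Ncapg at -1.60 and Bub1 at -1.17. None of these genes passed the interaction term, Cenpf having the lowest adjusted p (0.0644, edgeR). The largest rises were those of Plin4 (2.36), Myoc (1.93), Etnppl (1.77), C3 (1.71), Fmo2 (1.70), Sugct (1.70), Hddc3 (1.66), Slc2a4 (1.62), Itih2 (1.59) and Cd22 (1.59). Plin4 encodes a coat protein of lipid droplets. Its level was 122, 117 and 100.4 CPM at 6 weeks, against 47.1, 7.603 and 8.83 CPM at 2 weeks, with CKp25_2wk_4518 the highest library at 2 weeks. Myoc encodes myocilin, a secreted glycoprotein. It stood at 69.2, 45.9 and 55.1 CPM at 6 weeks and at 12.7, 18.2 and 14.1 CPM at 2 weeks. CK had 14.2 ± 4.46 CPM at 6 weeks and 13.5 ± 6.45 CPM at 2 weeks (SD, n = 3). Etnppl, a phospholyase that breaks down phosphoethanolamine in astrocytes, averaged 21.1 ± 2.35 CPM at 6 weeks and 6.03 ± 2.23 CPM at 2 weeks in CKp25. The calls of Fmo2 and Slc2a4 were lost without CKp25_6wk_3937, CKp25_6wk_4008, CKp25_2wk_4890 or CKp25_2wk_4894, that of Itih2 without CKp25_6wk_3937 or CKp25_2wk_4894, that of Cd22 without CKp25_6wk_3937 and that of Sugct without CKp25_2wk_4894.

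Genes of mitosis made up the group with the largest fall. Of 62 tested genes of mitosis and cytokinesis, 57 were lower in CKp25 at 6 weeks than at 2 weeks and none was higher, where 5.53% of all genes were lower. The 5 that were not called were Plk4, Cenpa, Cenpk, Anln and Pttg1, at -1.01 to 0.05. The median log2 fold change was -1.90 in CKp25 and 0.02 in CK. The list summed to 307 to 404 CPM in CKp25 at 6 weeks and to 799 to 1350 CPM at 2 weeks, against 135 to 151 CPM in CK at 6 weeks and 124 to 140.2 CPM in CK at 2 weeks. Its level at 6 weeks therefore lay between the CKp25 level at 2 weeks and the CK level. Set against CK of the same time, the median log2 fold change was 1.97 at 6 weeks and 3.73 at 2 weeks; these values share libraries with the comparison over time.

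Mki67, whose product Ki-67 marks cycling cells, was measured at 33.6, 23.7 and 21.1 CPM in CKp25 at 6 weeks and at 120.4, 132 and 203 CPM at 2 weeks. The times did not overlap, and the highest library was CKp25_2wk_4894. The log2 fold change was -2.55 ± 0.18 (SE), with an adjusted p of 1.56e-06 by edgeR, and CK stood at 2.11 ± 0.42 and 2.25 ± 0.42 CPM at 6 and 2 weeks (SD, n = 3). Cenpf, a kinetochore protein, had 5.60, 3.87 and 3.64 CPM at 6 weeks and 22.9, 25.2 and 36.6 CPM at 2 weeks. Kif11, the motor that pushes spindle poles apart, had 5.20, 5.47 and 5.64 CPM at 6 weeks and 19.0, 25.8 and 35.6 CPM at 2 weeks. Ccna2, the cyclin of S phase and early mitosis, had 4.60, 4.51 and 3.27 CPM at 6 weeks and 19.2, 17.8 and 25.98 CPM at 2 weeks. Each of these genes separated the 2 times without overlap, as did 28.8% of all genes tested. For Cenpf this was a condition of its choice, and Kif11 and Ccna2 were chosen after their values were seen. CKp25_2wk_4894 was the highest library for Mki67, Cenpf, Kif11 and Ccna2. For Ccna2 and Kif11 the change also differed from that in CK, by -2.36 and -2.04 log2 units (adjusted p = 0.0162 and 0.0483, edgeR interaction term). Mki67 and Cenpf did not pass that term (adjusted p = 0.0649 and 0.0644, edgeR), and 5 of the 62 mitosis genes did. The count of lower genes in this list was 51 to 58 when any of the 12 libraries was left out.

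**Figure D2:**
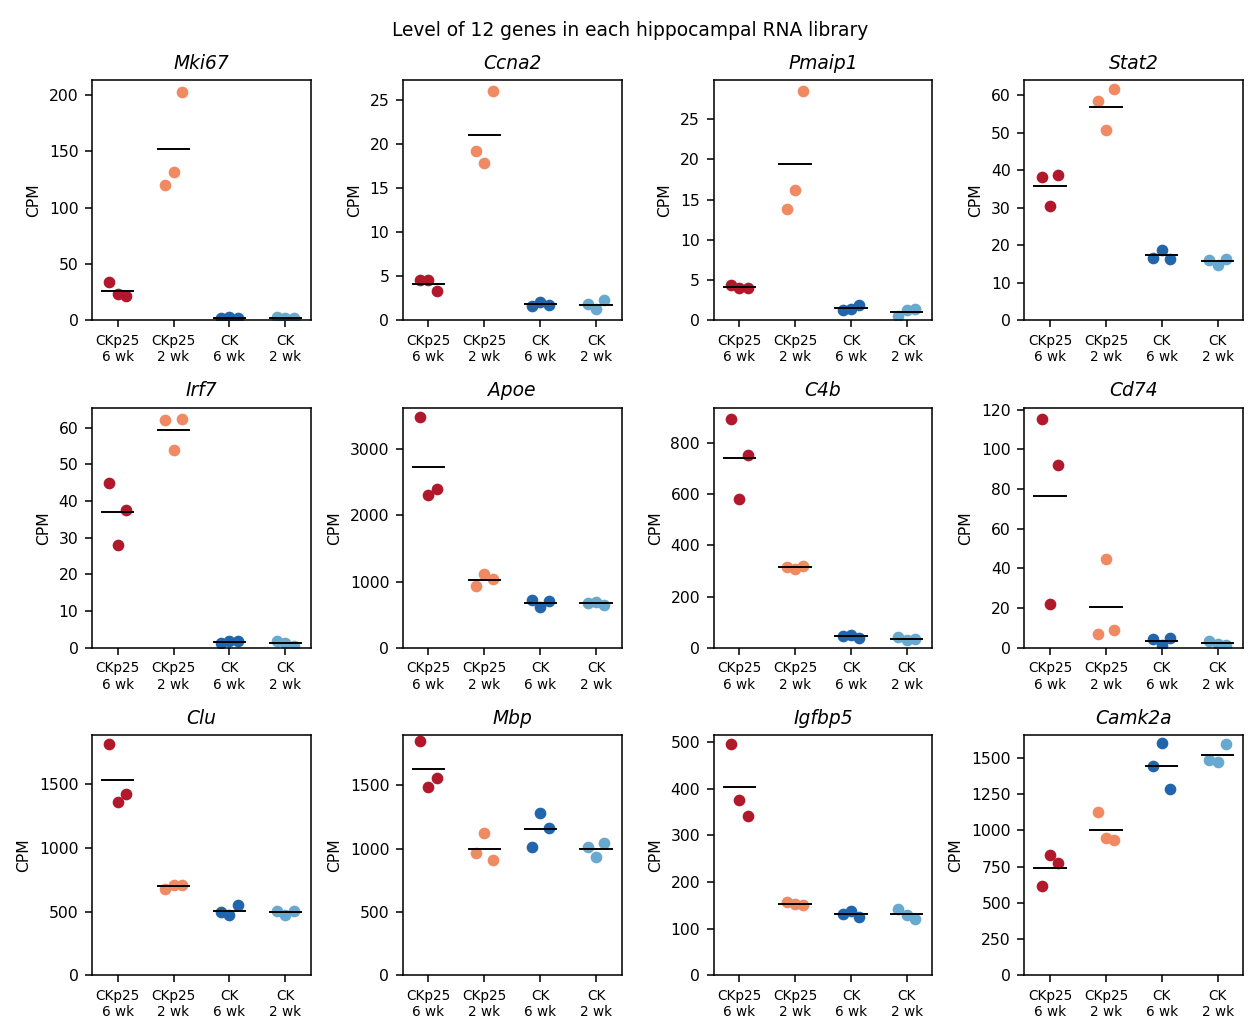
CPM of 12 genes in each library; points are libraries, horizontal bars are means of 3, and groups run from CKp25 6 weeks and CKp25 2 weeks to CK 6 weeks and CK 2 weeks. Mki67 and Ccna2 are lower at 6 than at 2 weeks in CKp25 with no overlap, Apoe and Clu are higher, and Cd74 overlaps between the times.

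Of 41 tested genes of DNA replication, 29 (70.7%) were lower at 6 weeks in CKp25 and none was higher, where 5.53% of all genes were lower. The median log2 fold change was -0.81, against 0.01 in CK. Uhrf1, which carries DNA methylation through replication, had 7.399, 4.67 and 3.64 CPM at 6 weeks and 19.97, 24.5 and 32.0 CPM at 2 weeks. Mcm6, a subunit of the replicative helicase, had 38.8, 31.7 and 30.2 CPM at 6 weeks and 61.2, 76.6 and 80.2 CPM at 2 weeks. Both genes separated the times without overlap, with log2 fold changes of -2.29 ± 0.24 and -1.12 ± 0.13 (SE). Genes that steer entry into the cycle had 11 of 27 members (40.7%) lower, among them Tfdp1, the partner of E2F factors (-0.53), and E2f1 (-0.74). Cdkn1b, which encodes the inhibitor p27, was higher (0.48). It was 3.7% of the list, against 6.12% of all genes. Of 6 linker histone genes, Hist1h1b (-2.03), Hist1h1a (-1.32) and Hist1h1d (-0.88) were lower. Near-identical histone genes lose reads that align to several places. Without CKp25_2wk_4894 the replication count was 17 and the cycle entry count 5, and without CKp25_6wk_3937 or CKp25_6wk_4008 the cycle entry count was 7. Without CKp25_6wk_4008 the call of Cdkn1b was lost, and 2 genes of this list were higher without CK_6wk_3938, CK_6wk_4009 or CK_2wk_4520. E2f1 lost its call without CKp25_6wk_3937, CKp25_6wk_4008 or CKp25_2wk_4894, and Hist1h1d without CKp25_6wk_3940, CKp25_6wk_4008, CKp25_2wk_4890 or CKp25_2wk_4894.

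Promoter sequences of mitotic, replication, interferon and cholesterol genes are shown because genes of these lists were called lower and such genes carry known regulatory motifs. The members were chosen because their windows hold the motif. The sequences are those of RefSeq, build GRCm38.p6, from 120 bases before to 30 bases from the transcription start, on the strand of the gene. Capitals mark only the motifs named below for each gene, and matches of other motifs stay in lower case. In the 3 mitotic promoters the capitals mark TTTGAA, the core of the cell cycle homology region through which the DREAM complex holds mitotic genes silent in resting cells, or CCAAT, the site of the activator NF-Y. Matches on the opposite strand read TTCAAA and ATTGG. In Mcm6 they mark TTTGGCGC, a form of the E2F site, in Isg15 the interferon-stimulated response motif GAAANNGAA in 3 overlapping matches, and in Cyp51 CCAAT. The Mcm6 window also holds ATTGG, left in lower case.
Mki67, chr7:135716350-135716499, minus strand: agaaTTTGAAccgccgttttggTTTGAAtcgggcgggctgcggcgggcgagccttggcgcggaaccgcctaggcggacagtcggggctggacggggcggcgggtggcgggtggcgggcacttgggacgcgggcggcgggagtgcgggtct
Cenpf, chr1:189688057-189688206, minus strand: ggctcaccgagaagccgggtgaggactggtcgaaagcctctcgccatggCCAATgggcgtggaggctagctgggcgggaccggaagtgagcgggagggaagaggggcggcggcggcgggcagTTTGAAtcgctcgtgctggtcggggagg
Kif11, chr19:37376262-37376411, plus strand: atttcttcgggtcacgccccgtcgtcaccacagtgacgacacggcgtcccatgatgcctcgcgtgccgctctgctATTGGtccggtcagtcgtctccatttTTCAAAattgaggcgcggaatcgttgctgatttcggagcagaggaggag
Mcm6, chr1:128359676-128359825, minus strand: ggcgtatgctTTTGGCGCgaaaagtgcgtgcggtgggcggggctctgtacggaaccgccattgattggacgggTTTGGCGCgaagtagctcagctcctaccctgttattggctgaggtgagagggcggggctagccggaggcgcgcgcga
Isg15, chr4:156200789-156200938, minus strand: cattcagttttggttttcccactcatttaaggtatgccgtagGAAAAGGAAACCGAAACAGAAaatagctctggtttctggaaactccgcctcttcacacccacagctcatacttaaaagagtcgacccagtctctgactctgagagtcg
Cyp51, chr5:4104668-4104817, minus strand: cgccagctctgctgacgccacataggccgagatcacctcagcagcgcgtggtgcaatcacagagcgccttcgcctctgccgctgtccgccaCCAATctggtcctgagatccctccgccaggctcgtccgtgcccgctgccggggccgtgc

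Motifs were searched on both strands in windows from 250 bases before to 50 bases from the start, which matched 10633 of the 14457 tested genes by symbol. A gene counted as holding a motif when any of its listed windows did. TTTGAA was held by 14% of all genes, by 71.2% of the 52 matched mitosis genes and by 11.8% of the 34 matched replication genes. E2F motifs, TTTGGCGC or TTTCCCGC, were held by 3.3% of all genes, by 5.77% of the mitosis genes and by 32.4% of the replication genes. CCAAT was held by 42.8% of all genes, 73.1% of mitosis genes and all 15 matched genes of cholesterol synthesis and uptake. Lists with few calls held it about as often, with 82.6% of ER stress and chaperone genes and 72.2% of MHC class I genes. The interferon list, with more genes lower, held it in 27.9%. GAAANNGAA was held by 8.72% of all genes and by 65.1% of the 43 matched interferon genes. Among all 579 matched genes called lower, 19.9% held TTTGAA, 50.6% CCAAT, 11.9% GAAANNGAA and 7.08% an E2F motif. Among the 144 of them at least 2-fold lower, 41.7% held TTTGAA, 65.3% CCAAT, 15.3% GAAANNGAA and 9.72% an E2F motif. Of the 680 matched genes called higher, 14.3% held TTTGAA, 44.3% CCAAT, 9.41% GAAANNGAA and 1.62% an E2F motif. A sterol regulatory motif, TCACNCCAC, was held by 1.38% of all genes and by no matched cholesterol gene. These shares describe letters in a window and do not show binding.

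**Figure D3:**
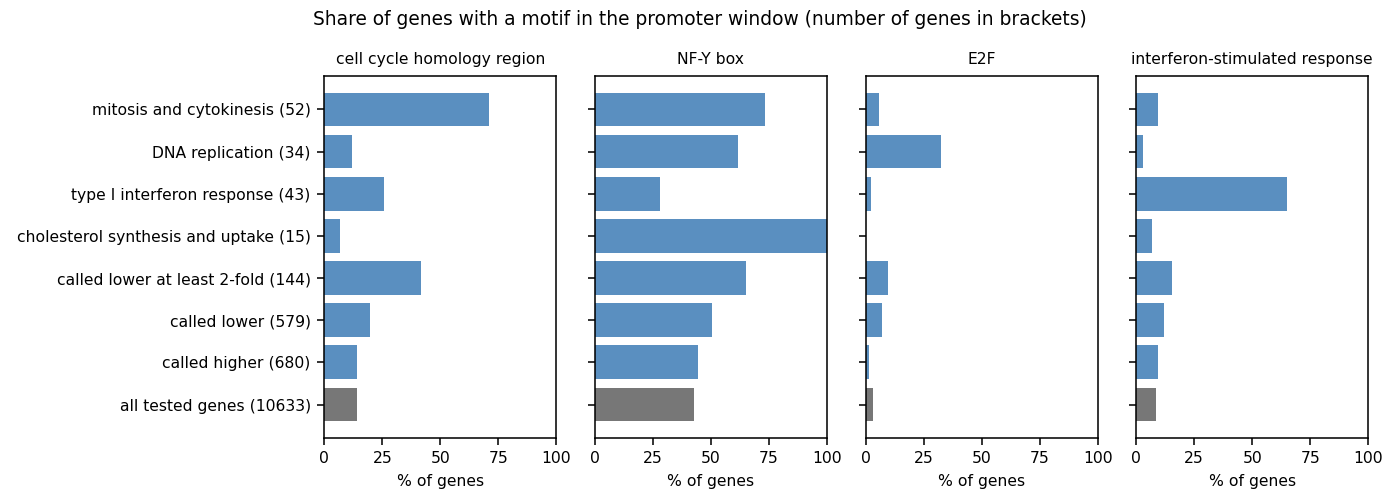
Share of genes (horizontal axis, percent) whose promoter window holds each of 4 motifs, for 4 gene lists, the genes called lower or higher, and all tested genes with a window (grey bars). The cell cycle homology region motif was held by 71.2% of mitosis genes and 14% of all genes, and the interferon-stimulated response motif by 65.1% of interferon genes and 8.72% of all genes.

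Genes of the response to DNA breaks were lower at 6 weeks in 13 of 45 cases (28.9%) and higher in none. Of all genes, 5.53% were lower and 6.12% higher. The median log2 fold change of the list was -0.35, against -0.01 in CK. Brca1, which acts in repair by homologous recombination, had 10.4, 8.53 and 8.18 CPM at 6 weeks and 31.0, 29.7 and 46.9 CPM at 2 weeks, without overlap. Its log2 fold change was -1.99 in CKp25 and -1.015 in CK, where it was not called. The difference of -0.98 did not pass the interaction term (adjusted p = 0.421, edgeR). Fancd2, which acts at crosslinks (-0.94), was also lower. The kinases Atm (-0.21) and Atr (-0.17), which sense breaks and stalled forks, did not pass the test. Of 28 genes of p53 and its targets, 12 (42.9%) were lower and 1 (3.57%) higher, with a median of -0.37 in CKp25 and 0.07 in CK. Pmaip1 encodes Noxa, an inducer of apoptosis. It had 4.40, 4.03 and 4.00 CPM at 6 weeks and 13.8, 16.1 and 28.4 CPM at 2 weeks, with no overlap. Bbc3 encodes Puma, a second such inducer, and had 6.00, 3.87 and 4.37 CPM at 6 weeks and 10.9, 12.6 and 19.6 CPM at 2 weeks. Bbc3 in CKp25 at 6 weeks stood close to CK of the same time (4.64 ± 0.435 CPM, SD, n = 3). Both differed from CK in their change over time, by -2.81 for Pmaip1 and -2.27 for Bbc3 (adjusted p = 0.0426 and 0.0142, edgeR). Part of each difference lay in CK, with log2 fold changes of 0.58 and 0.66, neither called. Pmaip1 was low in CK, at a mean of 1.52 CPM at 6 weeks and 1.05 CPM at 2 weeks. Bbc3 averaged 2.93 CPM in CK at 2 weeks. Of the 28 genes only these 2 passed that interaction term. Cdkn1a, the p53 target that arrests the cycle, had 10.6, 7.41 and 5.09 CPM at 6 weeks and 12.5, 12.4 and 19.1 CPM at 2 weeks. Its log2 fold change of -0.94 ± 0.27 (SE, adjusted p = 0.0333 by edgeR) lost the call without CKp25_6wk_3940, CKp25_6wk_4008 or CKp25_2wk_4894. The member that was higher, Sesn1, a stress-induced brake on growth signalling, was at 0.43 and lost its call without CKp25_2wk_4894, and 2 genes were higher without CKp25_6wk_3940 or CK_6wk_4009. The count of lower p53 genes was 4 without CKp25_2wk_4894, 6 without CKp25_6wk_4008, 7 without CKp25_6wk_3937 and 8 without CKp25_6wk_3940.

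Of 58 tested genes of the type I interferon response 19 were lower at 6 weeks and none was higher, where 5.53% of all genes were lower, and 56 of the 58 had a negative log2 fold change, with a median of -0.42 in CKp25 and 0.13 in CK. The list summed to 1524 to 2360 CPM in CKp25 at 6 weeks and 2348 to 2936 CPM at 2 weeks, against 409 to 466 CPM and 377 to 420 CPM in CK at 6 and 2 weeks. The times overlapped in CKp25, since CKp25_6wk_3937 (2360 CPM) stood above CKp25_2wk_4890 (2348 CPM), and each CKp25 library stood above every CK library. Stat2, a transcription factor that carries the interferon signal to the nucleus, had 38.2, 30.4 and 38.7 CPM at 6 weeks and 58.5, 50.6 and 61.6 CPM at 2 weeks, without overlap. Its log2 fold change was -0.68 ± 0.11 (SE, adjusted p = 0.000736), and its change differed from that in CK by -0.81 (adjusted p = 0.047, edgeR). Only 2 of the 58 genes passed that interaction term. Irf7, which amplifies interferon output, had 45.0, 28.02 and 37.6 CPM at 6 weeks and 62.1, 54.0 and 62.3 CPM at 2 weeks. Isg15, a ubiquitin-like protein joined to targets on interferon signalling, had 8.60, 4.35 and 7.27 CPM at 6 weeks and 14.4, 12.2 and 20.4 CPM at 2 weeks. CKp25_6wk_3940 was the lowest library for these 3 genes. Without it, 11 genes of the list were lower, and without CKp25_2wk_4894 8 were lower and Isg15 lost its call. Interferon-induced paralogs are undercounted, since reads with several alignments were set aside.

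Of 21 tested genes of MHC class I and peptide loading 1 (4.76%) was lower, near the 5.53% of all genes. It was Tap1, a peptide transporter (-0.83 ± 0.19, SE, adjusted p = 0.00819 by edgeR). The median of the list was -0.04. B2m, the invariant chain, had 464, 290.2 and 321 CPM at 6 weeks and 329, 331 and 357 CPM at 2 weeks. The 2 times overlapped for B2m and its adjusted p was 0.736. Tap1 lost its call without CKp25_2wk_4894 (-0.61), 3 genes were lower without CKp25_6wk_3937 and 2 higher without CKp25_6wk_3940. Of 20 cytokine and chemokine genes, Il33 (1.08) and Cxcl12 (0.42) were higher, and Lif (-1.89), Cxcl10 (-1.22) and Ccl12 (-1.03) were lower. These were 10% higher and 15% lower, against 6.12% and 5.53% of all genes. Cxcl12 lost its call without CKp25_6wk_3937, CKp25_6wk_4008, CKp25_2wk_4518 or CKp25_2wk_4894, and Ccl12 without any CKp25 library other than CKp25_2wk_4518. Il33, an alarmin stored in nuclei of glia, had 96.8, 81.0 and 81.8 CPM at 6 weeks and 35.0, 42.5 and 45.1 CPM at 2 weeks. Of 20 genes of the NF-kB pathway, Ptgs2, an enzyme of prostaglandin synthesis, was lower (-1.36) and Nfkbia, which encodes an inhibitor of NF-kB, higher (0.51). This was 5% in each direction, near the shares over all genes. Nfkbia lost its call without CK_2wk_4893 or any CKp25 library other than CKp25_6wk_3940, without which 2 genes were higher. Of 19 genes of inflammasomes and cell death, Gsdmd (0.90), Bcl2 (0.52) and Bcl2l1 (0.30) were higher, 15.8% of the list. Apaf1, the core of the apoptosome, was lower (-0.55), 5.26% of the list and near the share over all genes. Without CKp25_6wk_3937, CKp25_6wk_4008 or CKp25_2wk_4890 1 gene was higher. Gsdmd also lost its call without CKp25_2wk_4518, and Bcl2l1 without CKp25_6wk_3940 or CKp25_2wk_4894.

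**Figure D4:**
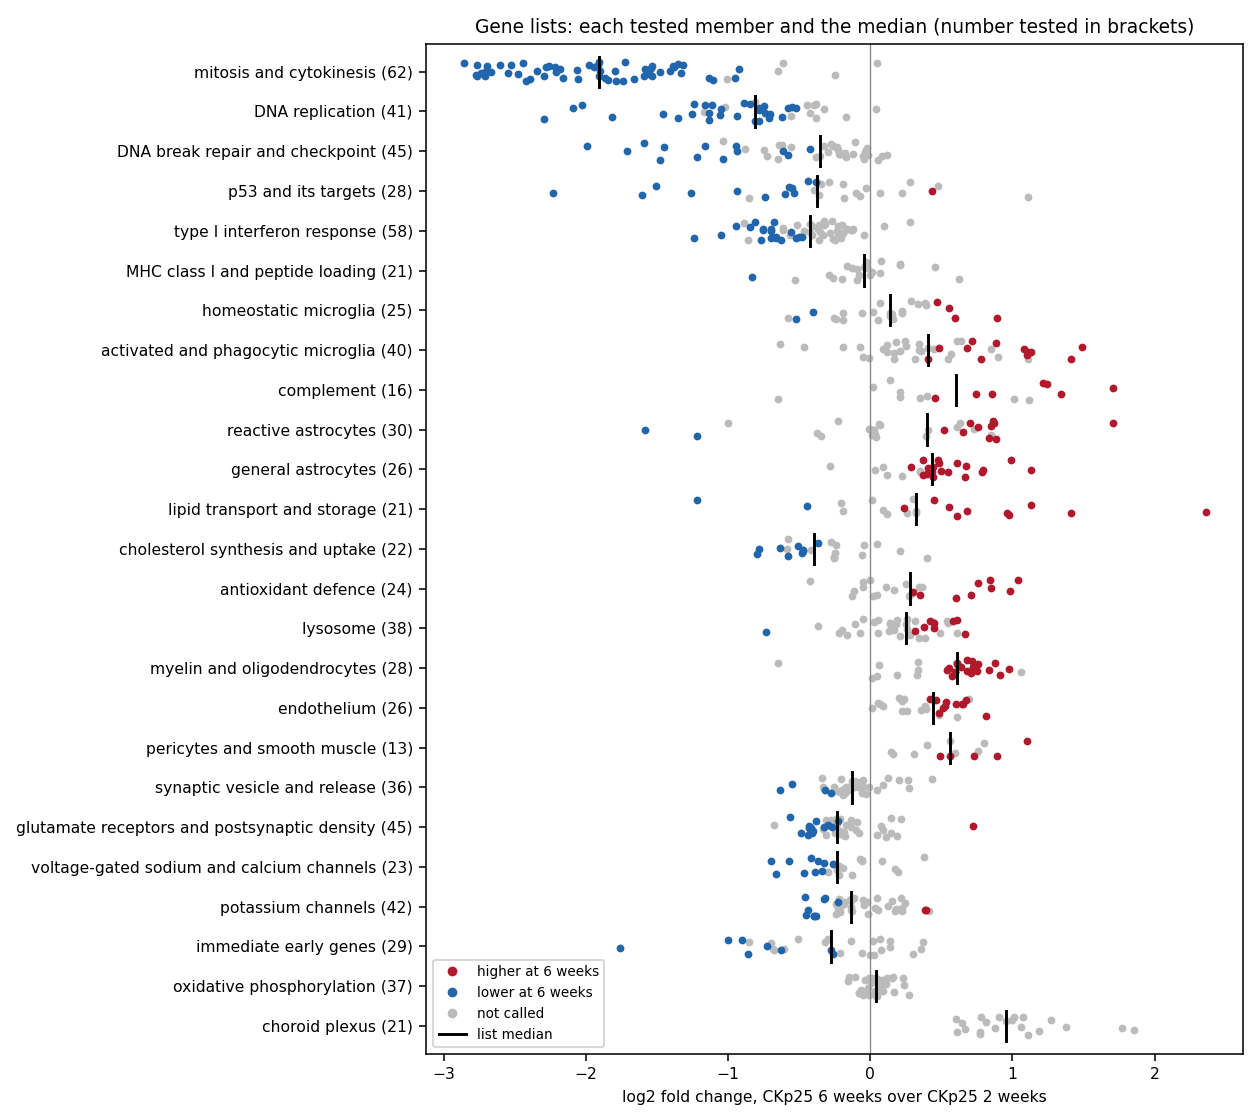
Log2 fold change of each tested member of 25 gene lists, CKp25 6 weeks over CKp25 2 weeks (horizontal axis); red and blue points passed the test, grey points did not, and black bars are list medians. Mitosis genes spread between -2.86 and 0.05 with a median of -1.90, and myelin genes sit mostly above 0 with a median of 0.61.

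Of 40 tested genes of activated and phagocytic microglia 12 were higher at 6 weeks and none lower, with a median log2 fold change of 0.41 in CKp25 and -0.02 in CK, where 6.12% of all genes were higher. Apoe, the lipid carrier that activated microglia and astrocytes both make, had 3482, 2310 and 2405 CPM at 6 weeks and 928, 1115 and 1045 CPM at 2 weeks. The times did not overlap, the log2 fold change was 1.41 ± 0.13 (SE, adjusted p = 9.04e-06), and the change differed from that in CK by 1.39 (adjusted p = 0.00263, edgeR). Apoe was the only 1 of the 40 genes to pass that interaction term. Trem2, a microglial receptor for lipids, had 81.4, 63.8 and 57.8 CPM at 6 weeks and 30.02, 36.2 and 43.6 CPM at 2 weeks, again without overlap. Lyz2 (1.49), Itgax (1.11), Clec7a (1.08), Spp1 (1.10) and Gpnmb (1.13) were also higher. The lysosomal protease Ctsd (-0.07) and Cst7 (-0.01) did not pass the test. Without CKp25_6wk_3937, 7 of the 40 were higher and 1 lower. Spp1 and Gpnmb lost their calls without CKp25_6wk_3937, CKp25_6wk_4008, CKp25_2wk_4890 or CKp25_2wk_4894, Gpnmb also without CKp25_6wk_3940 or CK_2wk_4893, and Clec7a without CKp25_6wk_3937.

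Among 25 genes of homeostatic microglia, 4 (16%) were higher and 2 (8%) lower, against 6.12% and 5.53% of all genes, and the median was 0.14. Those higher were Cst3 (0.89), Slco2b1 (0.59), Tgfbr1 (0.56) and Cx3cr1 (0.47), and those lower were Olfml3 (-0.53) and Tmem119 (-0.40). Csf1r, the receptor on which microglia depend for survival, had 291, 242 and 251 CPM at 6 weeks and 208, 245 and 259 CPM at 2 weeks. The times overlapped for Csf1r, with a log2 fold change of 0.14 ± 0.09 (SE, adjusted p = 0.385 by edgeR). Tmem119, a marker of resident microglia, had 39.0, 33.5 and 28.5 CPM at 6 weeks and 41.7, 43.2 and 48.2 CPM at 2 weeks. Cst3, a protease inhibitor that astrocytes also make, differed from CK in its change by 1.08 (adjusted p = 0.0162, edgeR). Without CKp25_6wk_4008 or CKp25_2wk_4894 neither Olfml3 nor Tmem119 was called, and Tmem119 lost its call also without CKp25_6wk_3940, CKp25_2wk_4890, CK_2wk_4891 or CK_2wk_4893. Without CKp25_6wk_3937 2 genes were higher, Tgfbr1 and Cx3cr1 having lost their calls, and Cx3cr1 lost its call also without CKp25_6wk_4008, CKp25_2wk_4518, CKp25_2wk_4890 or CK_6wk_3936.

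Complement genes were higher in 7 of 16 cases (43.8%) and lower in none, where 6.12% of all genes were higher. The median was 0.60 in CKp25 and 0.04 in CK. C4b, which tags targets of the classical pathway, had 894, 582 and 754 CPM at 6 weeks and 315, 309 and 319 CPM at 2 weeks. C3, the central component, had 62.8, 27.5 and 38.6 CPM at 6 weeks and 11.7, 13.5 and 14.1 CPM at 2 weeks. C4b separated the times without overlap, as 28.8% of all genes did. C3 did so too, but this was a condition of its place among the largest rises. The log2 fold changes of C4b and C3 were 1.24 ± 0.12 and 1.71 ± 0.23 (SE). In CK they were 0.32 and 1.00, and neither was called. C4b passed the interaction term (0.92, adjusted p = 0.0397, edgeR) and C3 did not (0.71, adjusted p = 0.762, edgeR). C1qa, which starts the classical pathway, had 291, 215 and 228 CPM at 6 weeks and 142, 184 and 209 CPM at 2 weeks (0.46 ± 0.12, SE, adjusted p = 0.0238 by edgeR), and lost its call without CKp25_6wk_3937 or CKp25_2wk_4518. The count was 4 without any of the CKp25 libraries other than CKp25_6wk_3940, and 5 by DESeq2. Of 18 Fc and Toll-like receptor genes 2 (11.1%) were higher, Cd14 (1.58) and Fcgr3 (0.76), against 6.12% of all genes. Without CKp25_6wk_3940 4 were higher. MHC class II genes varied between libraries: 2 of 9 (22.2%) were higher, Ctss (0.67) and Cd74 (1.95). Cd74, the class II chaperone, had 115, 21.9 and 92.2 CPM at 6 weeks and 7.00, 44.9 and 8.99 CPM at 2 weeks, so that the times overlapped. Its call was lost without CKp25_6wk_3937, CKp25_6wk_4008, CKp25_2wk_4518 or CKp25_2wk_4894, with DESeq2, with the 6 CKp25 libraries alone and with a choroid plexus covariate. Without CKp25_6wk_3940 or CKp25_2wk_4890, 4 class II genes were higher. The median of the class II list was 0.77 in CKp25 and 0.69 in CK. Mrc1 and Cd163, receptors of border macrophages, were higher (1.20 each), both calls were lost without CKp25_6wk_3937, CKp25_6wk_4008, CKp25_2wk_4518 or CKp25_2wk_4894, and that of Cd163 also without CKp25_6wk_3940, CKp25_2wk_4890, CK_6wk_3936, CK_6wk_4009 or CK_2wk_4891. Mrc1 overlapped between times, with 19.4, 9.02 and 17.6 CPM at 6 weeks and 5.98, 9.83 and 4.25 CPM at 2 weeks.

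Of 38 lysosomal genes 8 (21.1%) were higher and 1 (2.63%) was lower, against 6.12% and 5.53% of all genes. Among those higher was Npc1, the cholesterol exporter of lysosomes (0.45). The lower gene was Grn, which encodes progranulin, with 130, 111 and 107 CPM at 6 weeks and 181, 186 and 211 CPM at 2 weeks. Grn separated the times without overlap, in the direction opposite to most of its list, and its change differed from that in CK by -0.71 (adjusted p = 0.0296, edgeR). Without CKp25_6wk_3937 4 lysosomal genes were higher and 2 lower, and 5 were higher without CKp25_2wk_4518 or CKp25_2wk_4894.

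Of 26 general astrocyte genes 19 (73.1%) were higher in CKp25 at 6 weeks and none was lower, where 6.12% of all genes were higher. The median was 0.44 in CKp25 and 0.02 in CK. Clu, a secreted chaperone and lipid carrier, had 1814, 1357 and 1419 CPM at 6 weeks and 680, 708 and 705 CPM at 2 weeks. It separated the times without overlap, at 1.13 ± 0.10 (SE, adjusted p = 8.01e-06), and its change differed from that in CK by 1.10 (adjusted p = 0.00263, edgeR). Gja1, the gap junction protein connexin 43, had 230, 180 and 200 CPM at 6 weeks and 121, 135 and 127 CPM at 2 weeks. The glutamate transporters Slc1a2 (0.55) and Slc1a3 (0.41) and glutamine synthetase, Glul (0.67), were also higher. Aqp4, the water channel of astrocyte endfeet, had 642, 377 and 465 CPM at 6 weeks and 434, 400.0 and 436 CPM at 2 weeks, with overlap and an adjusted p of 0.331 by edgeR. The list summed to 15481 to 17982 CPM at 6 weeks and 10722 to 11349 CPM at 2 weeks in CKp25, and to 10501 to 11193 CPM and 10195 to 11083 CPM in CK at 6 and 2 weeks. At 2 weeks these sums overlapped between CKp25 and CK, and at 6 weeks they did not. The count was 14 to 22 with any 1 of the 12 libraries left out.

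Of 30 genes of reactive astrocytes 10 (33.3%) were higher and 2 (6.67%) lower, against 6.12% and 5.53% of all genes. The share lower was thus near that of all genes. The median was 0.40 in CKp25 and -0.17 in CK. Gfap, the filament protein that marks reactive astrocytes, had 3525, 2191 and 2480 CPM at 6 weeks and 1685, 1655 and 1872 CPM at 2 weeks, without overlap (0.65 ± 0.13, SE, adjusted p = 0.00358 by edgeR). Vim (0.76) and Serpina3n (0.52) were also higher. The 2 lower members were Tgm1, a transglutaminase, with 7.599, 3.38 and 5.46 CPM at 6 weeks and 16.2, 14.1 and 18.3 CPM at 2 weeks, and Cxcl10, an interferon-induced chemokine. The count of higher genes was 3 without CKp25_6wk_3937, 4 without CKp25_2wk_4894, and 6 without CKp25_6wk_4008, CKp25_2wk_4518 or CKp25_2wk_4890. Vim and Serpina3n lost their calls without CKp25_6wk_3937, CKp25_2wk_4890 or CKp25_2wk_4894. CKp25_6wk_3937 was the highest of the 3 libraries at 6 weeks for Gfap, Apoe, C4b, C3 and Clu.

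Lipid handling moved in both directions. Of 21 genes of lipid transport and storage 10 (47.6%) were higher, and Fabp7 and Scarb1 (9.52%) were lower. Of all genes, 6.12% were higher and 5.53% lower. Abca1, which exports cholesterol to lipoproteins, had 531, 360.4 and 380.3 CPM at 6 weeks and 221, 216 and 215 CPM at 2 weeks, without overlap (0.96 ± 0.11, SE, adjusted p = 5.98e-05 by edgeR). Fabp7, a fatty acid carrier of radial glia and immature astrocytes, had 11.4, 7.73 and 11.5 CPM at 6 weeks and 20.7, 29.3 and 21.1 CPM at 2 weeks. Of 22 genes of cholesterol synthesis and uptake 9 were lower and none higher, with a median of -0.39 in CKp25 and -0.01 in CK. Cyp51, a demethylase of the sterol pathway, had 28.2, 29.0 and 29.8 CPM at 6 weeks and 44.9, 40.2 and 44.4 CPM at 2 weeks, without overlap, and CK had 52.4 ± 2.61 and 55.1 ± 4.48 CPM at 6 and 2 weeks (SD, n = 3). Sqle, squalene epoxidase, averaged 22.04 ± 2.49 CPM at 6 weeks and 34.3 ± 0.21 CPM at 2 weeks. Srebf1, whose product drives fatty acid synthesis, was higher (0.85) while Srebf2, which drives sterol synthesis, was lower (-0.37). Scarb1, a lipoprotein receptor (-0.45), lost its call without CKp25_6wk_3937, CKp25_6wk_4008, CKp25_2wk_4890 or CKp25_2wk_4894. Of 24 antioxidant genes 9 were higher and none lower, with a median of 0.28. Prdx6, a peroxidase of lipid peroxides, had 490, 359 and 367 CPM at 6 weeks and 212, 201 and 203 CPM at 2 weeks, and Mt1, a metallothionein, had 261, 193 and 203 CPM at 6 weeks and 137, 108 and 121 CPM at 2 weeks. The antioxidant count was 3 without CKp25_6wk_3937 and 4 without CKp25_2wk_4894.

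**Figure D5:**
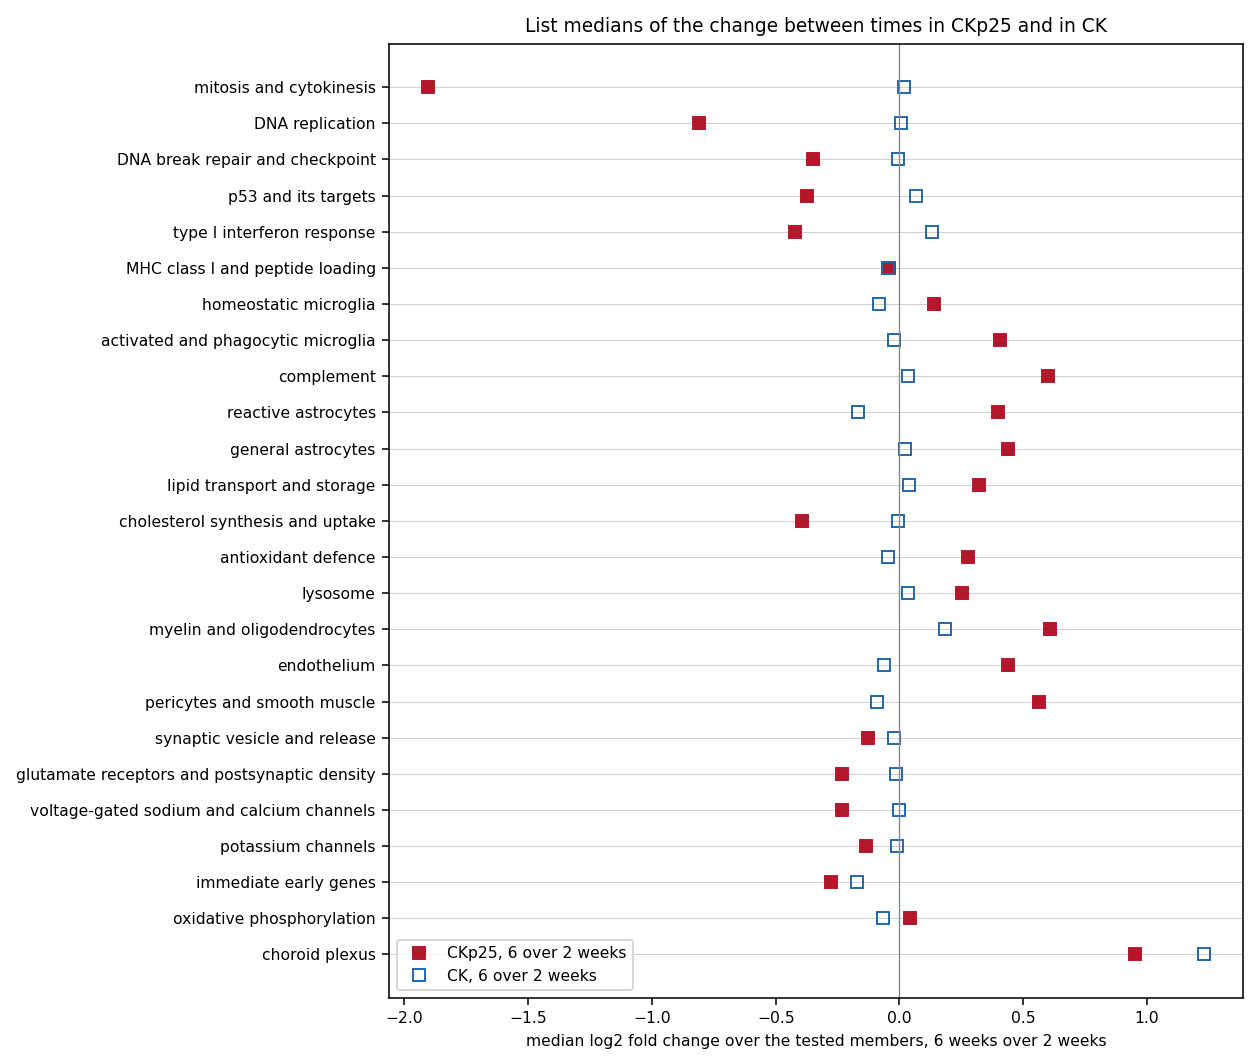
Median log2 fold change, 6 weeks over 2 weeks, over the tested members of 25 gene lists (horizontal axis) in CKp25 (filled red squares) and CK (open blue squares). The mitosis median was -1.90 in CKp25 and 0.02 in CK, and the choroid plexus median was 0.95 in CKp25 and 1.23 in CK.

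Myelin genes were higher at 6 weeks in 19 of 28 cases (67.9%) and lower in none, where 6.12% of all genes were higher. The median was 0.61 in CKp25 and 0.19 in CK. Mbp, the basic protein that compacts myelin, had 1847, 1487 and 1556 CPM at 6 weeks and 965, 1123 and 909 CPM at 2 weeks, and CK had 1155 ± 134 and 996 ± 57.4 CPM at 6 and 2 weeks (SD, n = 3). The CKp25 groups did not overlap (0.71 ± 0.11, SE, adjusted p = 0.000467 by edgeR). Hapln2, a link protein of the node of Ranvier, had 28.2, 25.4 and 24.2 CPM at 6 weeks and 15.3, 13.2 and 12.8 CPM at 2 weeks. By the interaction term none of the 28 genes passed an adjusted p of 0.05 in edgeR, and 17 had an unadjusted p under 0.05; for Mbp the difference was 0.49 (adjusted p = 0.133). Of 18 genes of oligodendrocyte precursors and their early progeny, Bcas1 (0.70), Sox10 (0.46) and Enpp6 (0.87) were higher, and 1 was higher without CKp25_6wk_3937, CKp25_2wk_4518 or CKp25_2wk_4894, when Sox10 and Enpp6 lost their calls; Enpp6 lost its call also without CKp25_2wk_4890, CK_6wk_4009 or CK_2wk_4893. Pdgfra, the receptor that defines precursors, did not pass the test (0.18).

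Endothelial genes were higher in 11 of 26 cases (42.3%), where 6.12% of all genes were higher. All 26 log2 fold changes were above 0, with a median of 0.44 in CKp25 and -0.06 in CK. Markers of red blood cells lay in the same direction: all 5 tested had log2 fold changes above 0, with a median of 0.76 in CKp25 and 0.05 in CK. Their 6 matched markers summed to 43.3 to 81.6 CPM in CKp25 at 6 weeks and 18.4 to 48.9 CPM at 2 weeks, with overlap, and to 29.3 to 86.4 CPM and 50.4 to 63.8 CPM in CK at 6 and 2 weeks. None was called by edgeR or DESeq2 and 1 had an unadjusted p under 0.05; 1 was called higher by edgeR without CKp25_6wk_3940, CK_6wk_3938 or CK_6wk_4009. The part of blood in the vascular values was not tested. Slc2a1, the glucose transporter of the blood-brain barrier, had 98.0, 95.6 and 86.0 CPM at 6 weeks and 72.7, 57.5 and 65.4 CPM at 2 weeks, without overlap (0.51 ± 0.10, SE, adjusted p = 0.00335 by edgeR). Cldn5, a tight junction protein, had 24.2, 21.6 and 18.0 CPM at 6 weeks and 12.4, 20.4 and 16.3 CPM at 2 weeks, with overlap and an adjusted p of 0.183. Of 13 genes of pericytes and smooth muscle 5 were higher, namely Rgs5 (0.49), Vtn (0.89), Abcc9 (0.73), Pdgfrb (0.56) and Des (1.10). Among 34 genes of fibroblasts and matrix 6 (17.6%) were higher and 3 (8.82%) lower, where 5.53% of all genes were lower. Those lower were Col4a2 (-0.63), Col4a1 (-0.32) and Lamb1 (-0.36), which encode basement membrane proteins. Igfbp5, a secreted carrier of insulin-like growth factors, had 495, 375 and 341 CPM at 6 weeks and 157, 153 and 151 CPM at 2 weeks. The groups did not overlap, at 1.39 ± 0.11 (SE, adjusted p = 2.56e-06), and the difference from the change in CK was 1.38, with the lowest adjusted p of all genes for that term (0.00115, edgeR). Without CKp25_6wk_3937 the counts of higher genes were 5 for endothelium, 2 for pericytes and 2 for fibroblasts, and without CKp25_2wk_4894 they were 7, 3 and 2. The fibroblast count was 2 without CKp25_6wk_4008 or CKp25_2wk_4518, 3 without CKp25_2wk_4890 and 10 without CKp25_6wk_3940, and the endothelial count was 6 without CKp25_6wk_4008 and 7 by DESeq2 or with library totals alone. Without CKp25_6wk_3937 the calls of Abcc9, Pdgfrb, Des, Col4a1 and Lamb1 were lost, without CKp25_2wk_4894 those of Pdgfrb, Des and Lamb1, without CKp25_6wk_4008 those of Des and Col4a1, without CKp25_2wk_4518 those of Des, Col4a1 and Lamb1, and without CKp25_2wk_4890 that of Des. Lamb1 also lost its call without CKp25_6wk_3940 or any CK library other than CK_2wk_4520.

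Of the genes in the neuronal lists, most did not pass the test. Over all genes tested, 5.53% were lower and 6.12% higher. Of 45 genes of glutamate receptors and the postsynaptic density 14 were lower and 1 higher, with a median of -0.23 in CKp25 and -0.01 in CK. Ppp3ca, the catalytic subunit of calcineurin, had 371, 445 and 447 CPM at 6 weeks and 595, 559 and 551 CPM at 2 weeks, without overlap (-0.43 ± 0.08, SE, adjusted p = 0.00313 by edgeR). Camk2a, the kinase whose promoter drives the transgene system, had 615, 830.1 and 774 CPM at 6 weeks and 1127, 948 and 936 CPM at 2 weeks, against 1444 ± 160 and 1517 ± 70.9 CPM in CK at 6 and 2 weeks (SD, n = 3). The AMPA receptor genes Gria1 (-0.41) and Gria2 (-0.29) and the NMDA receptor genes Grin2a (-0.42) and Grin2b (-0.41) were lower, and the kainate receptor gene Grik1 was higher (0.72). Of 23 sodium and calcium channel genes 10 were lower and none higher (median -0.23). Cacna1g, a low-threshold calcium channel, had 52.6, 65.2 and 56.4 CPM at 6 weeks and 96.8, 94.4 and 84.7 CPM at 2 weeks. Of the 10, 8 are calcium channel subunits and 2, Scn3a (-0.32) and Scn3b (-0.47), sodium channel subunits. Of 42 potassium channel genes 9 were lower, led by Kcna4 (-0.46), and Kcnk1 (0.40) and Hcn2 (0.38) were higher. Of 36 synaptic vesicle genes 4 (11.1%) were lower, namely Cplx2 (-0.55), Doc2b (-0.63), Amph (-0.32) and Nsf (-0.28). Snap25, a core fusion protein, had 729, 973 and 840.4 CPM at 6 weeks and 1041, 918 and 895 CPM at 2 weeks, with overlap and an adjusted p of 0.286. CKp25_6wk_3937 was the lowest and CKp25_6wk_3940 the highest of the 6-week libraries for Snap25, Camk2a, Cacna1g, Kcna4 and Cplx2.

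These neuronal counts moved with single libraries. Without CKp25_6wk_3937 the lower genes numbered 4 for glutamate receptors and postsynaptic density, 6 for sodium and calcium channels, 1 for potassium channels and 2 for synaptic vesicles, and without CKp25_6wk_3940 23, 12, 13 and 14. The glutamate count was 9 without CKp25_2wk_4518. The potassium channel count was 3 without CKp25_6wk_4008, and 4 without CKp25_2wk_4518 or CKp25_2wk_4890. The vesicle count was 2 without CKp25_2wk_4518 or CKp25_2wk_4894, 8 by DESeq2 and 9 with library totals alone. The glutamate count was 22 with library totals alone. Without CKp25_6wk_3937 the calls of Camk2a, Gria1, Gria2, Grin2a, Grin2b, Scn3a, Amph and Nsf were lost, and without CKp25_2wk_4518 those of the same genes other than Camk2a. Scn3a lost its call also without CKp25_6wk_3940, CKp25_6wk_4008 or CKp25_2wk_4890, Amph without CKp25_2wk_4890 or CKp25_2wk_4894, Gria2 without CKp25_6wk_4008, CKp25_2wk_4890 or any CK library, and Nsf without CKp25_6wk_4008, CKp25_2wk_4890, CKp25_2wk_4894 or any CK library of 2 weeks or CK_6wk_3936.

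By cell type, 4 of 16 genes of CA pyramidal neurons were lower, where 5.53% of all genes were. They were Fibcd1 (-0.72), Neurod6 (-0.53), Spink8 (-0.87) and Grik4 (-0.43). Of 20 genes of dentate granule neurons 6 were lower, including Calb1, a calcium buffer (-0.64), and Prox1, the transcription factor of granule cell identity (-0.41). Of 31 genes of GABA receptors and inhibitory interneurons 6 (19.4%) were higher and 4 (12.9%) lower, against 6.12% and 5.53% of all genes, with a median of 0.09. Those higher included Crhbp (0.73), Pvalb (0.79), Npy (0.51) and the vesicular GABA transporter Slc32a1 (0.33), and those lower included Calb1, Nos1 (-0.67) and Cck (-0.40). The enzymes Gad1 (0.23) and Gad2 (0.28) did not pass the test. Of 29 immediate early genes 8 were lower, with a median of -0.28 in CKp25 and -0.17 in CK. Egr2 had 3.40, 4.51 and 2.55 CPM at 6 weeks and 13.1, 8.53 and 14.1 CPM at 2 weeks, and Fos (-0.90) and Egr1 (-0.86) were lower. Arc (-0.68) and Npas4 (-0.61) did not pass the test. Of 18 genes of neurogenesis and immature neurons 2 (11.1%) were higher and 2 (11.1%) lower, against 6.12% and 5.53% of all genes. The median was -0.01 and 14 were not called. Sox2 (0.46), found in progenitors, was 1 of those higher. Those lower were Neurod1 (-0.75) and Tubb2b (-0.48), found in immature neurons. Without CKp25_6wk_3937 the counts of lower genes were 2 for CA neurons, 3 for dentate neurons and 2 for immediate early genes. Sox2 was not called without CKp25_6wk_3937 or CKp25_2wk_4894. The immediate early count was 2 without CKp25_6wk_4008 or CKp25_2wk_4894 and 4 without CKp25_2wk_4518, the CA count was 7 without CKp25_6wk_3940, and 3 interneuron genes were higher without CKp25_6wk_3940 or CKp25_2wk_4894. Single calls lost without CKp25_6wk_3937 were those of Spink8, Grik4, Prox1, Npy, Slc32a1, Cck and Fos, and without CKp25_2wk_4894 those of Npy, Slc32a1, Cck, Fos and Tubb2b. Those lost without CKp25_2wk_4518 were Spink8, Grik4, Prox1, Slc32a1 and Fos, and without CKp25_6wk_4008 Spink8, Slc32a1 and Fos. Without CKp25_6wk_3940 Prox1, Npy and Slc32a1 lost their calls, and without CKp25_2wk_4890 Prox1. Without single CK libraries Slc32a1 lost its call in every case, and Prox1 without CK_6wk_3936 or CK_2wk_4893.

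Cdk5 had 36.0, 46.5 and 41.3 CPM at 6 weeks and 39.5, 44.1 and 44.3 CPM at 2 weeks, with overlap and an adjusted p of 0.855 by edgeR. Cdk5r1, the mouse gene for p35, had 117, 145 and 123 CPM at 6 weeks and 158, 151 and 149 CPM at 2 weeks, without overlap. Its log2 fold change of -0.25 ± 0.08 (SE, adjusted p = 0.0414) passed the threshold narrowly and was lost in 14 of 24 alternatives, including without CKp25_6wk_3937, CKp25_6wk_4008, each library of CKp25 at 2 weeks and each CK library other than CK_6wk_3938. Whether reads of the p25 transgene are counted here is unknown, since its species is not stated in the labels. Of 21 genes of Cdk5, calpains and amyloid, 9.52% were higher and 4.76% (Cdk5r1) lower, near the 6.12% and 5.53% of all genes. Cast, the calpain inhibitor (0.69), and Capn2, a calpain (0.35), were higher. The log2 fold change of Cast in CK was 0.60 and was not called. Both lost their calls without CKp25_2wk_4894, and Capn2 also without CKp25_6wk_3937. App (-0.09), Mapt (0.12) and Bace1 (-0.12) did not pass the test. None of 37 oxidative phosphorylation genes was called in either direction by edgeR or DESeq2 (median 0.04), and 2 had an unadjusted p under 0.05.

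Of the 80 genes whose change between the times differed between CKp25 and CK, 26 are in at least 1 list and 54 in none. There are 5 in the mitosis list (Ccna2, Kif11, Incenp, Smc2 and Smc4), 5 in the general astrocyte list (Clu, Gja1, Gjb6, Mlc1 and Aldoc), and 3 in the lipid list (Apoe, Clu and Abca1). Pmaip1 and Bbc3 stand for p53, Stat2 and Ifit2 for interferon, Prdx6 and Mt1 for antioxidant defence, and Rrm1, a subunit of ribonucleotide reductase, for DNA replication. All 80 were also called in CKp25 over time. Genes outside the lists included Id4, an inhibitor of basic helix-loop-helix factors, at 60.7 ± 3.70 CPM in CKp25 at 6 weeks and 25.8 ± 1.48 CPM at 2 weeks, against 30.7 ± 4.34 and 28.3 ± 3.83 CPM in CK (SD, n = 3). Agt, the astrocytic precursor of angiotensin, averaged 24.1 CPM in CKp25 at 6 weeks and 11.6 CPM at 2 weeks, against 15.2 and 19.7 CPM in CK at 6 and 2 weeks. Erbb4, the neuregulin receptor of interneurons, was higher in CKp25 at 6 weeks (0.43) and Ncan, which encodes the matrix proteoglycan neurocan, lower (-0.54), with differences from CK of 0.45 and -0.53 (adjusted p = 0.047 and 0.0388, edgeR). None of the 80 was called in CK, where no gene at all was called. Part of a difference can lie in CK: the log2 fold change of Ifit2 was -0.62 in CKp25 and 0.84 in CK. In Plk5, a gene of dentate granule neurons, CKp25 averaged 8.78 CPM at 6 weeks and 17.0 CPM at 2 weeks, whereas CK averaged 15.4 and 8.74 CPM. The number of such genes was 24 to 204 with 1 library left out, lowest without CKp25_2wk_4894 and highest without CKp25_6wk_3940. It was 47 without CKp25_6wk_3937, CK_6wk_3938 or CK_2wk_4893, 50 without CKp25_6wk_4008 and 28 without CK_2wk_4891.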

How the data were processed

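RNA from whole hippocampus was sequenced after removal of ribosomal RNA with a stranded total RNA kit, per the labels' protocols. The authors deposited a table of read counts per gene; Bowtie, Picard, HTSeq 0.6.1 and MACS2 and the builds NCBIM37 and mm9 are named in the submitters' processing notes, without their roles. Whether reads were counted by strand is not stated in the labels, so reads of overlapping and antisense genes cannot be told apart. The 5 closing entries that name no gene stayed out of all library sizes and tests. They held 38.1 to 46.9% of reads outside genes, 0.137 to 0.165% ambiguous reads, 6.13 to 11.1% unaligned reads and 6.81 to 14.3% reads with several alignments. Peak lists of the series were not used here.

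Genes were filtered with filterByExpr, which kept 14457 of 37991, and fitted over all 12 libraries with 4 group means by edgeR 4.0.16 (TMM, quasi-likelihood test) in R 4.3.3, with Benjamini-Hochberg adjustment over all genes tested. The standard error is the log2 fold change divided by the square root of F. Alternatives used DESeq2 1.42.0, limma-voom (limma 3.58.1), other scaling, filters, covariates and each library left out. On simulated counts of the CKp25 comparison (14293 genes in that step) 37 of 67 genes changed 1.5-fold, 46 of 67 changed 2-fold and 66 of 66 changed 4-fold were recovered. Also called were 8 unchanged genes. The changed genes were drawn from those with a mean of at least 2 CPM, so recovery below that level was not tested. The simulated spread between libraries was the one fitted to these data. No library was a copy of another in its group: the chi-square per gene between libraries of a group was 2.25 to 9.08 in CKp25 and 1.47 to 6.01 in CK. Libraries of different groups were not compared in this way.

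The members and the 50 gene lists were chosen with earlier results of these data known. Of 1348 list entries 1328 matched a gene and 1177 different genes were tested. Named genes are the 10 highest and 10 lowest log2 fold changes among called genes with a symbol, at least 2 CPM on average in CKp25 and no overlap, the called member of lowest adjusted p in each direction of a list, and 16 fixed genes. All other genes named with values were chosen after their values were seen. Promoters are those of RefSeq (GRCm38.p6). Intervals and p-values cover the spread between libraries only. Some genes are not reported here.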

Additional observations from a re-analysis of the deposited data

Results flagged for a closer look

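For the genes below, the log2 change from 2 to 6 weeks differed between CKp25 and CK by the interaction term of the edgeR fit at an adjusted p under 0.05. Each value is the log2 change in CKp25 minus that in CK. It was positive for Myoc (1.90), Etnppl (1.63), Agt (1.44), Apoe (1.39), Igfbp5 (1.38), Id4 (1.13), Clu (1.10), Cst3 (1.08), Gjb6 (1.01), Prdx6 (1.00), C4b (0.92), Srebf1 (0.92), Mt1 (0.90), Abca1 (0.89), Mlc1 (0.88), Gja1 (0.63), Aldoc (0.55) and Erbb4 (0.45). It was negative for Pmaip1 (-2.81), Ccna2 (-2.36), Bbc3 (-2.27), Kif11 (-2.04), Plk5 (-1.78), Ifit2 (-1.46), Incenp (-1.38), Smc4 (-1.30), Smc2 (-0.99), Rrm1 (-0.96), Stat2 (-0.81), Sqle (-0.73), Grn (-0.71) and Ncan (-0.53). The adjusted p was lowest for Igfbp5 (0.00115).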

How the results depend on the processing

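The counts of 885 higher, 800 lower and 80 differing genes stayed within 1.5 times under the alternatives tried, apart from those given here. Library totals alone gave 1311 lower genes. At an adjusted p under 0.01 there were 404 higher, 324 lower and 11 differing genes. Differing genes numbered 219 with DESeq2, 693 without a filter on low counts, 293 with a choroid plexus covariate and 301 with a covariate of reads with several alignments; the cause was not tested. With 1 library left out, higher genes numbered 431 to 965, lower genes 408 to 1064 and differing genes 24 to 204. Without CKp25_2wk_4518 and CK_2wk_4520 together, 1 gene was higher and 25 lower in CK. Of the 1685 called genes, 1282 were called by DESeq2, 1644 by limma-voom, 1307 with the 6 CKp25 libraries alone and 1486 with library totals alone. Of 194 genes named or chosen by the rule 170 were called, 100 kept the call in all 24 alternatives, 70 lost it in at least 1, and none reversed. The alternatives that cost most calls were an adjusted p under 0.01 (60), leaving out CKp25_6wk_3937 (53) and leaving out CKp25_2wk_4894 (46). No paired analysis was possible because the groups' library numbers are not shared. Depth of 5029996 to 6450140 gene counts limits genes near 1 CPM, where a library holds few reads.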

Other observations

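The lists that follow held at most 4 called genes each in CKp25 between 6 and 2 weeks. Over all genes tested, 6.12% were higher and 5.53% lower. Of 17 genes of neurotrophins and neuropeptides 2 were higher and 2 lower, with Ntrk2, the receptor of brain-derived neurotrophic factor, at 0.46 and Ntrk3, the receptor of neurotrophin 3, at -0.36. Of 27 genes of ER stress and chaperones 2 were higher, first Herpud1 (0.38), and 1 lower, Sesn2 (-0.74). Of 28 chromatin enzymes 1 was higher, Hdac8 (0.58), and 2 lower, first Hells, a helicase active in dividing cells (-1.17). Of 5 nuclear long non-coding RNAs Neat1, the scaffold of paraspeckles, was higher (0.80). Of 14 striatal and thalamic markers 1 was lower, Rgs9 (-0.65), and the median was 0.33. No ependymal or lymphocyte gene was called by edgeR or DESeq2, of 12 and 1 tested, and 1 ependymal gene had an unadjusted p under 0.05.

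The largest rise among called genes with at least 2 CPM on average and no overlap belonged to a gene with no symbol in the files, ENSMUSG00000075736. It had 7.80, 16.9 and 38.4 CPM in CKp25 at 6 weeks and 3.06, 0 and 0.163 CPM at 2 weeks, with a wide spread within each time.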
